A study of Mus musculus with 6 samples.

Results

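The genes described here are 40 named genes of ribosome biogenesis: the transcription factor MYC and its partner, RNA polymerase I and its factors, the nucleolar proteins that process and modify ribosomal RNA, the assembly factors of both ribosomal subunits and a pair of polyamine enzymes. They were taken by symbol from the array annotation, with the brightest 1-symbol probeset for each gene. Of the 40, 39 had such a probeset among 19938 genes measured, and Noc2l is not analysed here. The samples were lineage-negative, Kit-positive, Sca-1-positive (KSL) bone marrow cells of young adult wild-type FVB/nJ mice, the marrow fraction that holds haematopoietic stem cells and multipotent progenitors. In 3 samples the cells were infected with a lentivirus carrying mouse HLX, a homeobox transcription factor, together with an IRES-GFP cassette (HLX vector), and in 3 with the same vector type carrying GFP alone (pCAD-IRES-GFP, control vector). The labels give the HLX vector's parts in differing order, as pCAD-HLX-IRES-GFP and pCAD-IRES-GFP-Hlx. All 6 samples were cultured for 2 days in medium with FBS and the mouse cytokines SCF, IL-6 and IL-3, with polybrene at 8 µg/ml during infection, before sorting for GFP. Both groups had thus been through culture with these cytokines.

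Ribosomes are built in the nucleolus, where polymerase I transcribes a long precursor RNA that small nucleolar ribonucleoproteins (snoRNPs) modify and a large set of processing and assembly factors cut, fold and join to ribosomal proteins. MYC, paired with MAX, is known to drive many genes of this programme through E-box sequences, and ribosome output is tied to growth and proliferation of haematopoietic progenitors. The question addressed was whether these genes, as a set and at each step, differed between HLX-vector and control-vector cells, and whether Myc itself did.

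Values are log2 expression levels made by RMA, a method that corrects background and brings arrays to a common distribution. In bulk RNA of this kind, a different share of cells of one type and a different amount of RNA per cell cannot be told apart. Hlx, as the check of the labels, stood at log2 levels of 10.75, 9.74 and 10.28 on the HLX-vector arrays, against 6.99, 7.29 and 7.62 on the control-vector arrays. Kit, which defines the sorted fraction, averaged 9.50 with the HLX vector and 9.41 with the control vector, and was brighter than 91.9% of genes. Of the 4 markers of that fraction measured, Kit was the 1 with a higher mean with the HLX vector, Gata2 (-0.044), Meis1 (-0.081) and Slamf1 (-0.17) had negative log2 differences, Slamf1 was below the median brightness of all genes, and 0 of the 4 were at an unadjusted p under 0.05 in limma. The T cell markers Cd3e, Cd3g, Cd4 and Cd8a and the B cell markers Ms4a1 and Cd79a were all below the median brightness of all genes. So were the erythroid markers Klf1 and Slc4a1, and 3 of 4 stromal or endothelial markers. Of 4 megakaryocyte markers 1 was below it. Pf4, brighter than 91.3% of genes, stood at 9.62, 9.42 and 8.26 with the HLX vector and 10.73, 8.74 and 9.40 with the control vector. The part of these lists was not tested. All 4 macrophage markers measured (Csf1r, Adgre1, Cd68 and Marco) had higher means with the HLX vector, 2 of them at an unadjusted p under 0.05 in limma. The log2 of their summed linear levels ran between 10.04 and 10.41 on HLX-vector arrays and between 9.39 and 9.71 on control-vector arrays. This sum weighs bright genes such as Cd68 most, and Adgre1 and Marco overlapped between the vectors. The part of these markers in the values below was not tested. The 5 granulocyte markers were all below the median brightness of all genes. The log2 of their summed linear levels did not overlap either, at 8.08 to 8.18 on HLX-vector arrays and 7.77 to 7.97 on control-vector arrays. Of these 5 genes 2 had a higher mean with the HLX vector, Itgam (0.89, unadjusted p from limma 0.00423) and S100a8 (0.071). Ly6g (-0.15), Ltf (-0.093) and Camp (-0.19) had lower means, with every HLX-vector array below every control-vector array. Itgam had the largest of the 5 differences in size, and the part of this list was not tested.

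As a set, the genes stood slightly higher with the HLX vector, by an amount about the size of the spread between arrays (0.053 as the pooled SD of the set's median on each array). Of the 39 measured members 29 had a positive log2 difference (HLX minus control) and 10 a negative one, which is 74.4% above 0 where 47.5% of all genes tested were above 0. Their median log2 difference was 0.055, beside a median of -0.0078 over all genes. The members are bright genes, with a median level at the 94.3rd percentile of all genes. Among the 5982 genes above the 70th percentile of brightness, 56.4% lay above 0 and the median difference was 0.022. In 27 of the 39 members the difference was smaller than 0.1 log2 units in either direction. The same held for 10851 of all 19938 genes and for 2671 of the 5982 bright ones. The median absolute difference over members was 0.070, against a median SD between replicates of 0.14. Over all genes these values were 0.090 and 0.156, and the median absolute difference over the bright genes was 0.116.

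No member passed limma's adjusted threshold of 0.05, and over all genes the share called at that threshold was 0.0% (0 of 19938), with 958 genes at an unadjusted p under 0.05. The smallest adjusted p among members was 0.824. At an unadjusted p under 0.05 stood 3 members higher with the HLX vector, Rbis, Srm and Nip7, and 0 lower, where 4.8% of all genes met that threshold, 2.44% higher and 2.36% lower. Those shares are 487 and 471 genes, and after centring of the arrays on their medians they were 612 higher and 376 lower. Bright genes were more often higher. In the fit reported, 279 of the 5982 genes above the 70th percentile of brightness were higher and 171 lower at an unadjusted p under 0.05 in limma. Without HLX replicate 1, without control replicate 2 or without control replicate 3 the count of higher members was 1, Rbis, and without control replicate 2 Rrp12 also stood at that threshold, lower. Rbis was at that threshold in all 15 alternative settings tried, which refit the same arrays. The members were chosen with earlier results of these data known, so this is a description. Nip7 was not at that threshold after repeated quantile normalization, after cyclic loess, under either filter on level, with a trended and robust prior or with the replicate block, nor in 5 of the 6 fits without 1 array, and its unadjusted p reached 0.118. After repeated quantile normalization Rrp12 was at that threshold, lower with the HLX vector. The groups of 3 arrays did not overlap in 5 members with HLX above control (Rbis, Nip7, Max, Polr1c and Dkc1, the last by the final deposited decimal) and in 1 with HLX below control (Rrp12). Over all genes 9.19% did not overlap, 4.34% with HLX above and 4.85% with HLX below. Among the 5982 bright genes 412 had HLX above and 249 had HLX below. The 95% intervals from limma lay inside 1.5-fold in both directions for 34 of the 39 members, so for those a larger difference between the vectors is outside the interval. For the other 5 the interval reached past 1.5-fold higher, and for 0 past 1.5-fold lower.

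**Figure D1:**
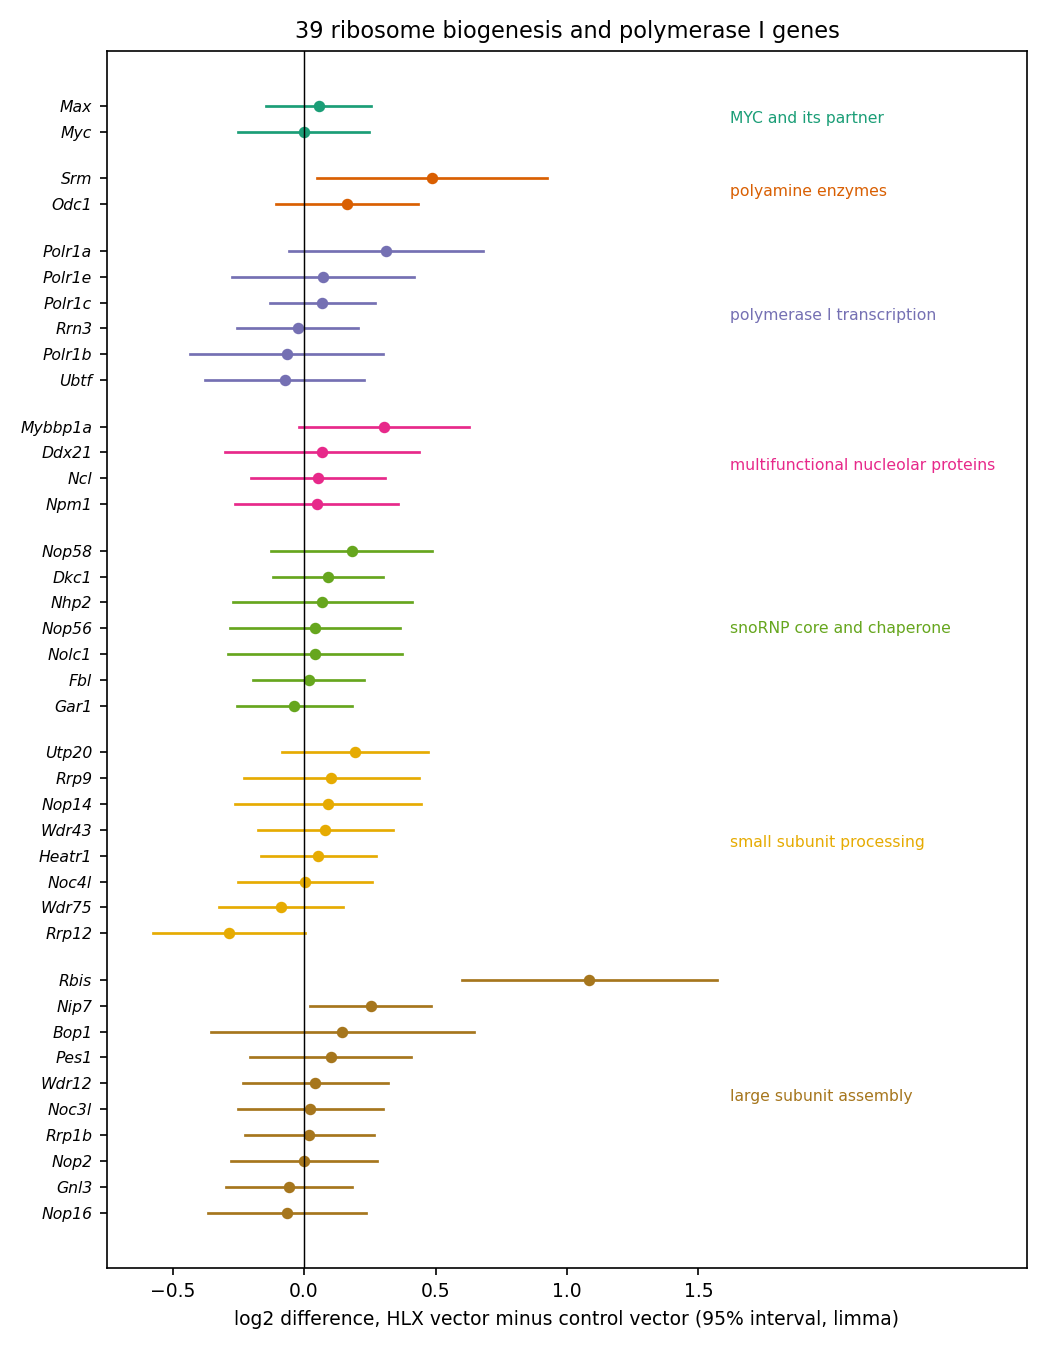
Log2 difference of each of the 39 measured members, HLX vector minus control vector, with the 95% interval from limma (3 arrays per group), grouped by step and sorted by difference within a step. Only the intervals of Rbis, Srm and Nip7 lie wholly on one side of 0, and the point of Rbis lies at 1.09 while the other 38 lie between -0.28 and 0.49.

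Myc, the transcription factor at the head of the programme, had the same mean with both vectors. Its log2 levels were 11.12, 11.01 and 10.89 on HLX-vector arrays 1 to 3 and 10.90, 11.01 and 11.12 on control-vector arrays 1 to 3. The groups overlapped completely with a mean of 11.01 ± 0.11 in HLX-vector cells and 11.01 ± 0.11 in control-vector cells (SD, n = 3 each). The log2 difference was -0.0018 ± 0.11 (moderated SE), its 95% interval ran from -0.25 to 0.25, and the sign turned under centring of the arrays on their medians (0.020). Max, the obligate partner of MYC, stood at 11.82, 11.87 and 11.80 with the HLX vector, against 11.79, 11.75 and 11.78 with the control vector. All 3 HLX-vector arrays of Max were above all 3 control-vector arrays, by a small amount (0.056 ± 0.085, moderated SE, adjusted p from limma 1.0).

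The 13 further genes of the MYC and MAX network measured here, which include the antagonists of the MXD family, split evenly, with 6 above 0 and a median of -0.0054. None was at an unadjusted p under 0.05 in limma. Trrap, a co-activator scaffold that MYC recruits, had the smallest p, with log2 levels of 8.91, 8.91 and 8.87 in HLX-vector cells, against 8.84, 7.75 and 8.51 in control-vector cells. That difference of 0.53 ± 0.25 (moderated SE) came mostly from control replicate 2. Without it the difference was 0.22, and with the mean of both Trrap probesets it was 0.26. Mycn, the paralogue of Myc, differed by -0.21 ± 0.11 with groups that did not overlap, and Mxd4, a MAX-binding repressor, by -0.32 ± 0.20.

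Promoter sequences were read for members because MYC and MAX bind E-boxes. RefSeq windows (GRCm38.p6, 250 bases before to 50 after a gene's start) were found for 32 of the 39 members, not for Srm, Rbis or Myc among others. The E-box letters CACGTG, which read the same on both strands, occurred in 7 of these 32 members (21.9%), Max, Mybbp1a, Nop2, Pes1, Rrn3, Utp20 and Wdr43. By gene, 9.5% of the 15614 measured genes with a window held them. Counted by window, 17.5% of the members' windows held the letters, against 7.15% of all 32851 windows in the table, and median GC content was 59.7% in members' windows and 52.7% in all windows. In the 152 further pathway genes without ribosomal proteins 126 had a window, and 26 of these (20.6%) held the letters. Members with the letters had a median log2 difference of 0.080 (5 of 7 above 0) and the 25 without them one of 0.052 (19 above 0). The windows below are shown for the members with the letters that recur in the results and, for contrast, for Nip7, which has none and was among the 3 members at an unadjusted p under 0.05. CACGTG is in capitals, and each window runs 5′ to 3′ on the strand of its gene.
Max, chr12:76962199-76962498, minus strand: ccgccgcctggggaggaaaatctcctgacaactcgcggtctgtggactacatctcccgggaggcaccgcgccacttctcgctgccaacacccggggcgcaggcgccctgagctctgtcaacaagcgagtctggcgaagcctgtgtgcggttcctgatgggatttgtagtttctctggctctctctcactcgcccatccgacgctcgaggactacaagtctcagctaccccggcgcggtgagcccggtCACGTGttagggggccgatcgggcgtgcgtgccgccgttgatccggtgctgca
Rrn3, chr16:13780449-13780748, plus strand: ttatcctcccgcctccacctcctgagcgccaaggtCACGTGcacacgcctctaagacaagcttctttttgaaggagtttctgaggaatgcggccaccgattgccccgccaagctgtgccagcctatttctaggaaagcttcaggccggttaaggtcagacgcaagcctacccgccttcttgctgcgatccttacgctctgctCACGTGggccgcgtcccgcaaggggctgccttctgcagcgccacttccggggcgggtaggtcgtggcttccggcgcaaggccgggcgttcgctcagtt
Mybbp1a, chr11:72441077-72441376, plus strand: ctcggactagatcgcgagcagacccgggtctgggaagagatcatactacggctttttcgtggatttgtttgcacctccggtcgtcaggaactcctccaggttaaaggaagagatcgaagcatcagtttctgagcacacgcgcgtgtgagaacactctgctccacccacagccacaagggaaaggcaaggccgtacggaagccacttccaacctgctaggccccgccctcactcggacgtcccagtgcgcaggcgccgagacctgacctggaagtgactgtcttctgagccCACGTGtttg
Utp20, chr10:88826765-88827064, minus strand: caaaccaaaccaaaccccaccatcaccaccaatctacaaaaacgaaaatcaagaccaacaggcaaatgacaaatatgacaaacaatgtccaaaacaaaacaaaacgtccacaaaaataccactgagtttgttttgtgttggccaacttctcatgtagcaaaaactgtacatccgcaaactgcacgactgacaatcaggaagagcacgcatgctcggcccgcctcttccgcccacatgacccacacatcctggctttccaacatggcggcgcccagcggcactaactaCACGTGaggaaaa
Nip7, chr8:107056627-107056926, plus strand: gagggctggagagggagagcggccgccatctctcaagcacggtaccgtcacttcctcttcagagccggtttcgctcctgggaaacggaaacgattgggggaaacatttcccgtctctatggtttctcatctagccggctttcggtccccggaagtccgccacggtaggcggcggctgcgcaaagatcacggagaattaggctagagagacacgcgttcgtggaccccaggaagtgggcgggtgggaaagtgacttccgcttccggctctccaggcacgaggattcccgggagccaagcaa
In Max the first base of the E-box lay 3 bases before the annotated start, and in Rrn3 the E-boxes began 215 and 48 bases before it. In Mybbp1a and Utp20 it began 40 and 37 bases after the start. These matches are letters in a window and are no measure of binding.

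The polyamine enzymes were both above 0. Srm, spermidine synthase and a known MYC target, stood at log2 levels of 10.31, 10.40 and 10.07 in HLX-vector cells, against 10.12, 9.41 and 9.78 in control-vector cells. HLX replicates 1 and 2 were above every control-vector array, and HLX replicate 3 was below control replicate 1. The log2 difference was 0.49 ± 0.19 (moderated SE, 1.40-fold, interval 1.04 to 1.90), with an unadjusted p of 0.0334 and an adjusted p from limma of 1.0. With 1 array left out the difference lay between 0.31, without control replicate 2, and 0.66, without control replicate 1, and over all settings the unadjusted p reached 0.101. Odc1, ornithine decarboxylase, which makes the first polyamine, stood at 10.88, 10.98 and 10.77 against 10.83, 10.78 and 10.54 with the control vector. Its difference was 0.16 ± 0.11, or 0.076 without control replicate 3, and the groups overlapped in the brightest probeset. In a dimmer Odc1 probeset, at 9.95, 9.97 and 9.96 with the HLX vector and 9.89, 9.68 and 9.81 with the control vector, they did not overlap and the difference was likewise 0.16. The 6 other polyamine genes measured went both ways. Smox, spermine oxidase, was at 0.41 ± 0.17 and Sat1, the acetyltransferase of polyamine breakdown, at 0.56 ± 0.29, while Oaz2, an antizyme that inhibits ornithine decarboxylase, was at -0.41 ± 0.14 (moderated SE). Without HLX replicate 2 the difference of Sat1 was 0.24, and without control replicate 2 that of Smox was 0.21. Smox and Oaz2 were at an unadjusted p under 0.05 (0.0484 and 0.024), without overlap of their groups, and their adjusted p from limma were 1.0 and 0.973.

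**Figure D2:**
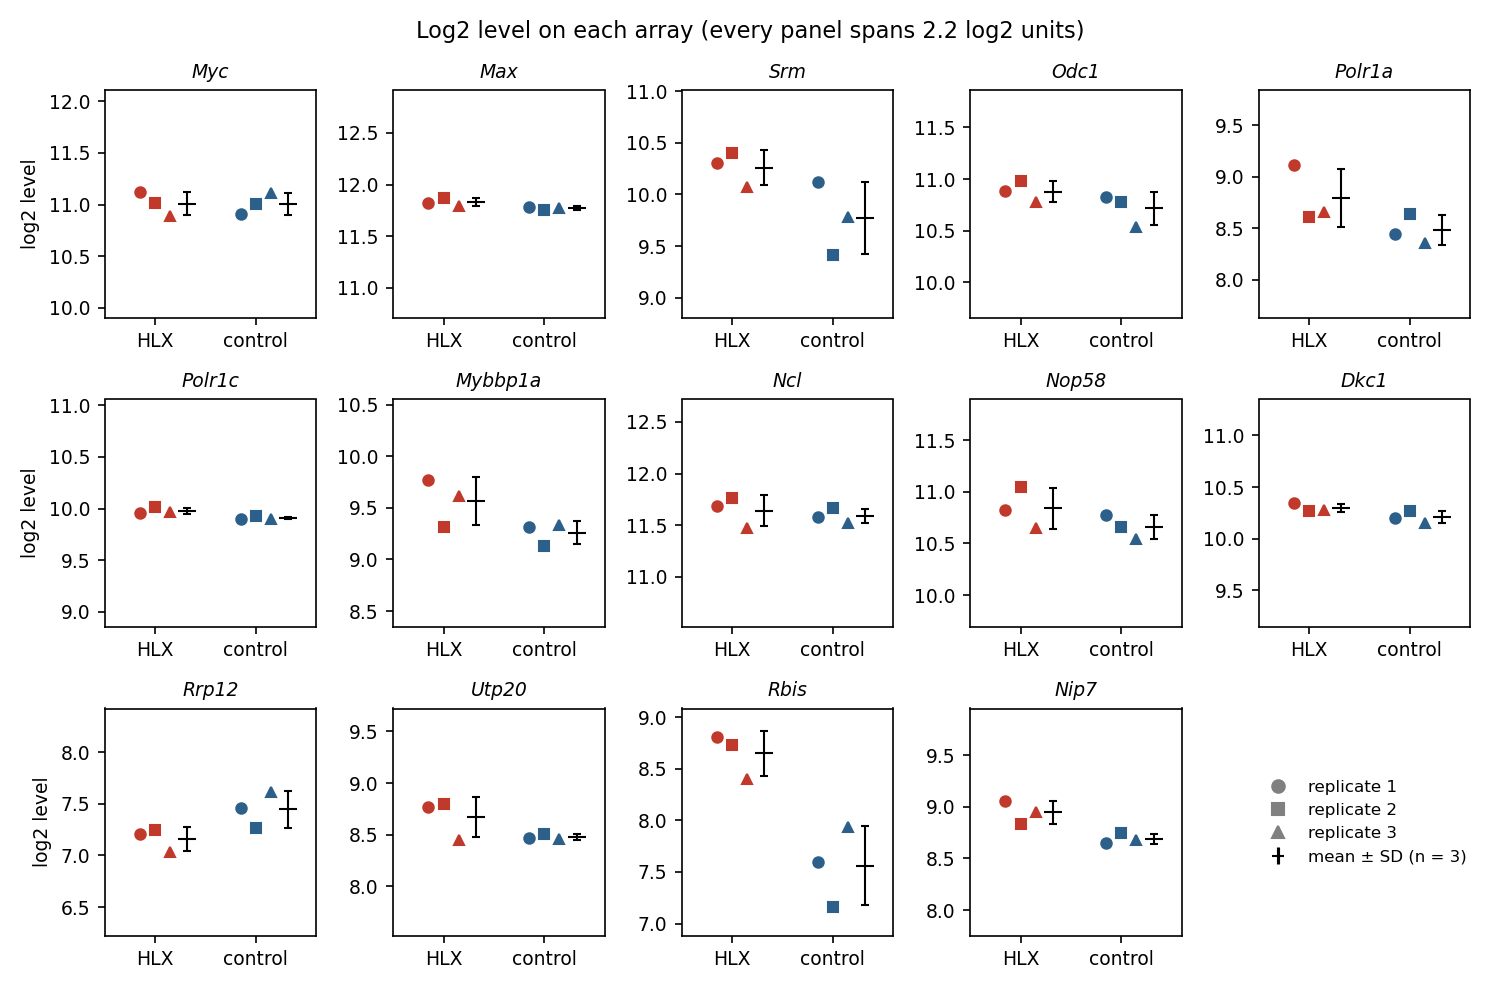
Log2 level on each array for the 14 members whose array values are given, with HLX-vector arrays left (red) and control-vector arrays right (blue) in each panel, symbols for the replicate number, and the mean with SD (n = 3). Every panel spans the same 2.2 log2 units. The groups of Rbis are well apart, those of Myc coincide at 11.01 and those of Srm differ by 0.49 with overlap.

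Of the 6 polymerase I genes 3 were above 0 and 3 below, with a median of 0.023. Polr1a, the largest subunit of the enzyme, stood at 9.11, 8.61 and 8.66 in HLX-vector cells, against 8.45, 8.64 and 8.36 in control-vector cells. Its difference of 0.31 ± 0.16 (moderated SE, unadjusted p 0.0865, adjusted p from limma 1.0) rested on HLX replicate 1, and without that array it was 0.15. Polr1c, a subunit shared with polymerase III, had the tightest groups, at 9.96, 10.01 and 9.96 against 9.90, 9.93 and 9.90 with the control vector, and a difference of 0.070 ± 0.085 without overlap. Polr1b, the second catalytic subunit (-0.066), Polr1e, a subunit that acts in initiation (0.072), Ubtf, the factor that coats ribosomal DNA (-0.074), and Rrn3, which brings the polymerase to its promoter (-0.024), had differences smaller than their moderated SE.

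The 13 further genes of polymerase I and its promoter factors leaned the other way, with 4 above 0 and a median of -0.085. Polr2k, a small subunit shared by all nuclear RNA polymerases, stood at 6.71, 6.43 and 6.48 in HLX-vector cells, against 7.06, 6.91 and 6.93 in control-vector cells, with a difference of -0.42 ± 0.11 (moderated SE). Polr2l, another shared subunit, stood at 11.48, 11.49 and 11.59, against 11.32, 11.23 and 11.30 with the control vector, with a difference of 0.24 ± 0.089. Neither pair of groups overlapped, and the unadjusted p were 0.00565 and 0.0311 with adjusted p from limma of 0.901 and 1.0. Taf1b, a subunit of the promoter selectivity factor of polymerase I, was at -0.25 ± 0.14. Of 18 polymerase III genes 8 were above 0 (median -0.034), with Maf1, a repressor of polymerase III, at 0.29 ± 0.12, Polr3a, its largest subunit, at 0.30 ± 0.16 and Polr3c at 0.18 ± 0.12. Maf1 alone of them was at an unadjusted p under 0.05 (0.0492, adjusted p from limma 1.0).

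All 4 of the nucleolar proteins with several roles had positive differences. Mybbp1a, a nucleolar MYB-binding protein, stood at 9.77, 9.31 and 9.61 in HLX-vector cells, against 9.32, 9.13 and 9.33 in control-vector cells. HLX replicates 1 and 3 were above every control-vector array and HLX replicate 2 was not, and the difference was 0.30 ± 0.14 (moderated SE, unadjusted p 0.0605). Ncl, nucleolin, an abundant RNA-binding protein of the nucleolus, stood at 11.69, 11.76 and 11.47 against 11.58, 11.66 and 11.52 with the control vector, a difference of 0.052 ± 0.11 with HLX replicate 3 the lowest of the 6 arrays. Npm1, the nucleolar chaperone nucleophosmin, differed by 0.049 ± 0.13 and the RNA helicase gene Ddx21 by 0.068 ± 0.16. These 3 transcripts were lowest on HLX replicate 3 among the HLX-vector arrays, and without HLX replicate 2 their differences were -0.0077, -0.066 and -0.033.

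Of the 7 snoRNP genes 6 were above 0, with a median of 0.042. In the box C/D particles, which guide ribose methylation, the methyltransferase gene Fbl was at 0.018 ± 0.090, Nop56 at 0.042 ± 0.14 and Nop58 at 0.18 ± 0.13 (moderated SE). Nop58 stood at 10.82, 11.05 and 10.65 in HLX-vector cells, against 10.78, 10.66 and 10.54 in control-vector cells, so that HLX replicate 3 lay inside the control range, and without HLX replicate 2 the difference was 0.077. A dimmer probeset of Fbl gave 7.58, 7.52 and 7.53 with the HLX vector and 7.38, 7.41 and 7.28 with the control vector, a difference of 0.19 without overlap where the brightest one overlapped. In the H/ACA particles, which guide pseudouridylation, the synthase gene Dkc1 stood at 10.35, 10.27 and 10.28 against 10.20, 10.27 and 10.15 with the control vector. HLX replicate 2 and control replicate 2 differed only in the final deposited decimal, so the groups touched, at a difference of 0.090 ± 0.089. Its partners Gar1 (-0.037) and Nhp2 (0.070) and the snoRNP chaperone Nolc1 (0.042) differed by less than their moderated SE. Of 11 further snoRNP genes 8 were above 0, with a median of 0.054. Shq1, which chaperones DKC1, was at -0.45 ± 0.19 (unadjusted p 0.0454, adjusted p from limma 1.0), Naf1, an H/ACA assembly factor, at 0.31 ± 0.20 and the helicase gene Ruvbl2 at 0.19 ± 0.11.

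Among 8 genes of small subunit processing 6 were above 0, with a median of 0.067. Rrp12, known in yeast for nuclear export of pre-ribosomes, was the member furthest below 0. It stood at 7.20, 7.25 and 7.03 in HLX-vector cells, against 7.46, 7.26 and 7.62 in control-vector cells, without overlap. Its difference was -0.28 ± 0.12 (moderated SE, unadjusted p 0.0518, adjusted p from limma 1.0). Its probeset was brighter than 65.3% of genes. Utp20, a large scaffold protein of the small subunit processome, stood at 8.77, 8.80 and 8.44, against 8.47, 8.51 and 8.46 with the control vector, a difference of 0.19 ± 0.12 in which HLX replicate 3 was the lowest of all 6 arrays. The U3 snoRNP protein gene Rrp9 was at 0.10, Nop14 at 0.090, Wdr43 at 0.080, Heatr1 at 0.055, Noc4l at 0.0038 and Wdr75 at -0.088, all of them processome components. Each of these 6 overlapped between the vectors.

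Of 39 further small subunit genes 24 were above 0 (61.5%), with a median of 0.078. Wdr36, a processome protein, stood at 8.57, 8.41 and 8.22 in HLX-vector cells, against 8.12, 7.84 and 8.03 in control-vector cells, and was at 0.41 ± 0.13 (moderated SE) with an unadjusted p of 0.0141 and an adjusted p from limma of 0.932. Wdr3 was at 0.54 ± 0.24 and Dcaf13 at 0.27 ± 0.12, each with overlap.

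Large subunit assembly held the member that stood apart. Rbis, known from human cells as a factor in the assembly of the large subunit, stood at 8.81, 8.73 and 8.40 in HLX-vector cells, against 7.60, 7.16 and 7.93 in control-vector cells. Every HLX-vector array was above every control-vector array, and the means were 8.65 ± 0.21 and 7.56 ± 0.39 (SD, n = 3 each). The log2 difference was 1.09 ± 0.21 (moderated SE), which is 2.12-fold with an interval of 1.52 to 2.97. Its unadjusted p was 0.00101 and its adjusted p from limma 0.824, and over the 15 alternative settings and the fit reported the adjusted p ran between 0.549 and 0.999. Leaving out 1 array at a time, the difference was between 0.88 and 1.27. Without Rbis the members' median difference was 0.053, beside 0.055 with it.

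Nip7, a further large subunit factor, stood at 9.05, 8.83 and 8.95 in HLX-vector cells, against 8.65, 8.74 and 8.68 in control-vector cells. The groups did not overlap and the difference was 0.25 ± 0.098 (moderated SE, unadjusted p 0.0347, adjusted p from limma 1.0). The 3 proteins of the PeBoW complex, which act together on the large subunit precursor, had small positive differences, Bop1 at 0.15 ± 0.21, Pes1 at 0.10 ± 0.13 and Wdr12 at 0.043 ± 0.12. A dimmer probeset of Wdr12 was at -0.040. The remaining members overlapped between the vectors, with Noc3l at 0.024, Rrp1b at 0.020, the ribosomal RNA methyltransferase gene Nop2 at -0.0003, Gnl3, nucleostemin, at -0.057 and Nop16 at -0.065.

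Of 38 further large subunit genes 25 had a positive difference (65.8%), the median was 0.057, and 0 were at an unadjusted p under 0.05 in limma. The GTPase gene Gnl2 was at 0.35 ± 0.17, the SUMO protease gene Senp3 at 0.29 ± 0.14 and Tex10 at -0.30 ± 0.18 (moderated SE). Of the RNA exosome, which trims precursor RNA, 10 of 14 genes were positive (median 0.069). Its core subunit gene Exosc7 stood at 10.42, 10.58 and 10.17 in HLX-vector cells, against 9.83, 9.89 and 9.99 in control-vector cells. That difference of 0.49 ± 0.13, without overlap, had the smallest p of all 207 further pathway genes (unadjusted p 0.0055, adjusted p from limma 0.901). Exosc5 was at -0.25 ± 0.13 and Mphosph6, an exosome cofactor, at 0.18 ± 0.13.

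The ribosomal protein genes, the products that assembly factors put in place, stayed near 0. Of 55 measured 21 were above 0, with a median of -0.0089 and a range of -0.20 to 0.19. Of the 55, 50 differed by less than 0.1, as did 10851 of all 19938 genes. Their median level was 12.35, at the 99.8th percentile of all genes, where the highest value on any array was 13.62. Whether differences are compressed so near the top of the range was not tested. Rplp2 was at -0.20 ± 0.11, Rpl29 at -0.15 ± 0.11 and Rpl34 at 0.17 ± 0.12 (moderated SE). Over all 207 further pathway genes 108 were above 0, with 5 higher and 3 lower at an unadjusted p under 0.05 and 0 at the adjusted threshold in limma.

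**Figure D3:**
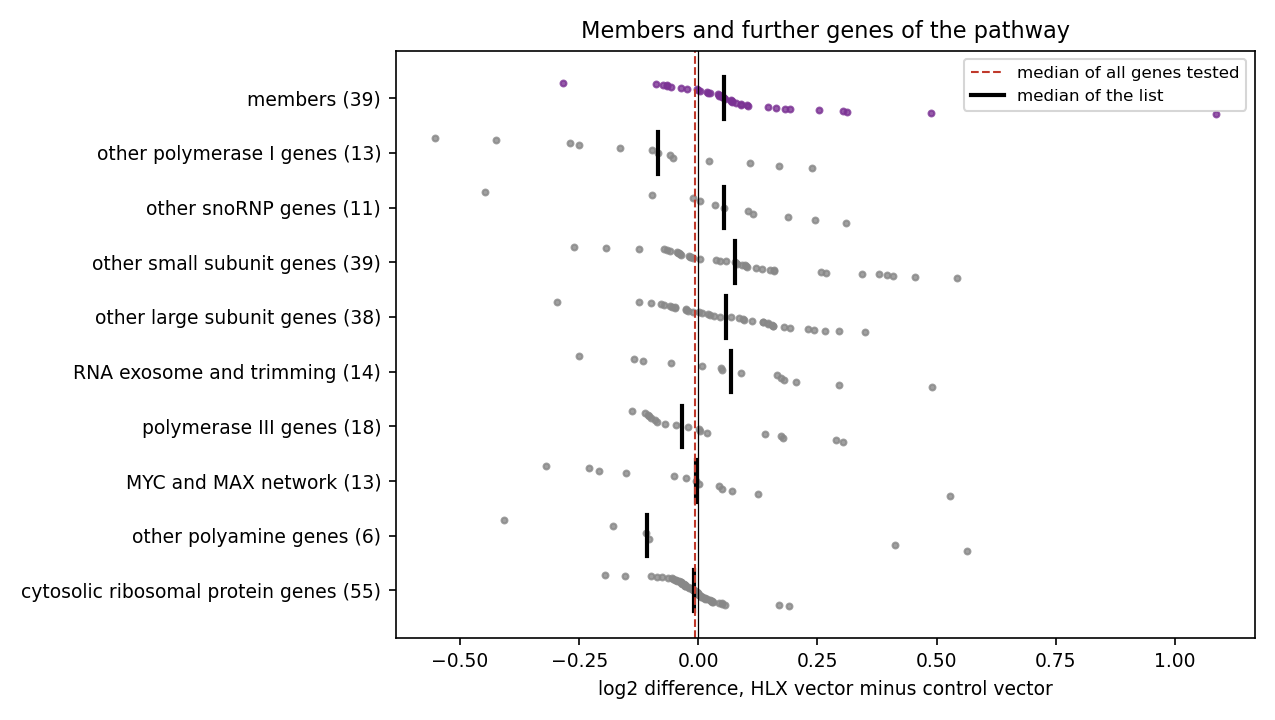
Log2 differences, HLX vector minus control vector, of the 39 members (purple) and of the genes of 9 further lists of the pathway (grey), each point 1 gene, with the number of genes in brackets. Black bars are list medians and the dashed line is the median of 19938 genes (-0.0078). The members' median is 0.055, that of the further polymerase I genes -0.085 and that of ribosomal protein genes -0.0089.

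Array by array, the members stood highest on HLX replicates 1 and 2. Each gene was set against its own mean over the 6 arrays, and the median deviation over the 39 members was 0.076, 0.035 and -0.061 on HLX-vector arrays 1 to 3 and -0.011, -0.036 and -0.059 on control-vector arrays 1 to 3. HLX replicate 3 thus lay with the control arrays, and the groups overlapped, with means of 0.017 ± 0.071 for the HLX vector and -0.035 ± 0.024 for the control vector (SD, n = 3 each). On HLX replicate 1, 31 of 39 members were above their own mean (79.5%, against 47.1% of all genes), on HLX replicate 2 25 and on HLX replicate 3 14. HLX replicate 3 was the lowest HLX-vector array in 23 of 39 members (59.0%), where it was lowest in 26.9% of all genes. Over all genes the median deviations were -0.0096, -0.045 and 0.034 on the HLX-vector arrays and -0.018, 0.0082 and 0.017 on the control-vector arrays. Against the median of all genes, the members stood lowest on HLX replicate 3. In the fit with array weights that array had the lowest weight (0.55) and HLX replicate 1 the highest (1.38). The macrophage marker Csf1r stood at 6.49, 7.80 and 8.92 on HLX-vector arrays 1 to 3. Adgre1 and Marco were also highest on HLX replicate 3, while Cd68 was highest on HLX replicate 1. The part of these differences between arrays was not tested.

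**Figure D4:**
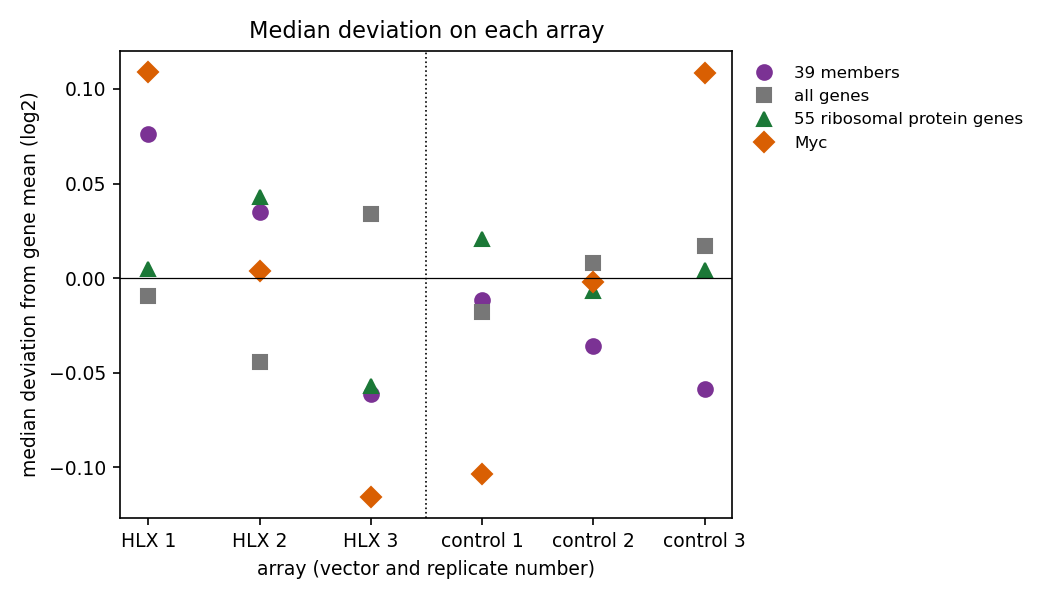
Median deviation from each gene's mean over 6 arrays, in log2 units, on each array, for the 39 members, all 19938 genes, the 55 ribosomal protein genes and Myc alone. The members are highest on HLX replicate 1 (0.076) and lowest on HLX replicate 3 (-0.061).

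Myc did not order the arrays as the set did. Its deviations were 0.11, 0.0039 and -0.12 on HLX-vector arrays 1 to 3 and -0.10, -0.0021 and 0.11 on control-vector arrays 1 to 3. Among HLX-vector arrays both Myc and the members were highest on replicate 1 and lowest on replicate 3. Among control-vector arrays Myc was highest on replicate 3, where the members' median was lowest, and lowest on replicate 1, where it was highest. By step, the median deviations of the nucleolar proteins with several roles spanned the widest range among HLX-vector arrays, at 0.078, 0.19 and -0.17, against 0.0081, 0.0069 and -0.097 on the control-vector arrays. The polymerase I genes gave 0.053, 0.019 and 0.016 on the HLX-vector arrays, against 0.0041, -0.040 and -0.047 on the control-vector arrays, the only step of the 7 in which these medians did not overlap. The medians of the 13 further polymerase I genes did not overlap either, in the opposite direction, at -0.045, -0.047 and -0.032 on the HLX-vector arrays, against -0.0010, -0.016 and 0.14 on the control-vector arrays.

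**Figure D5:**
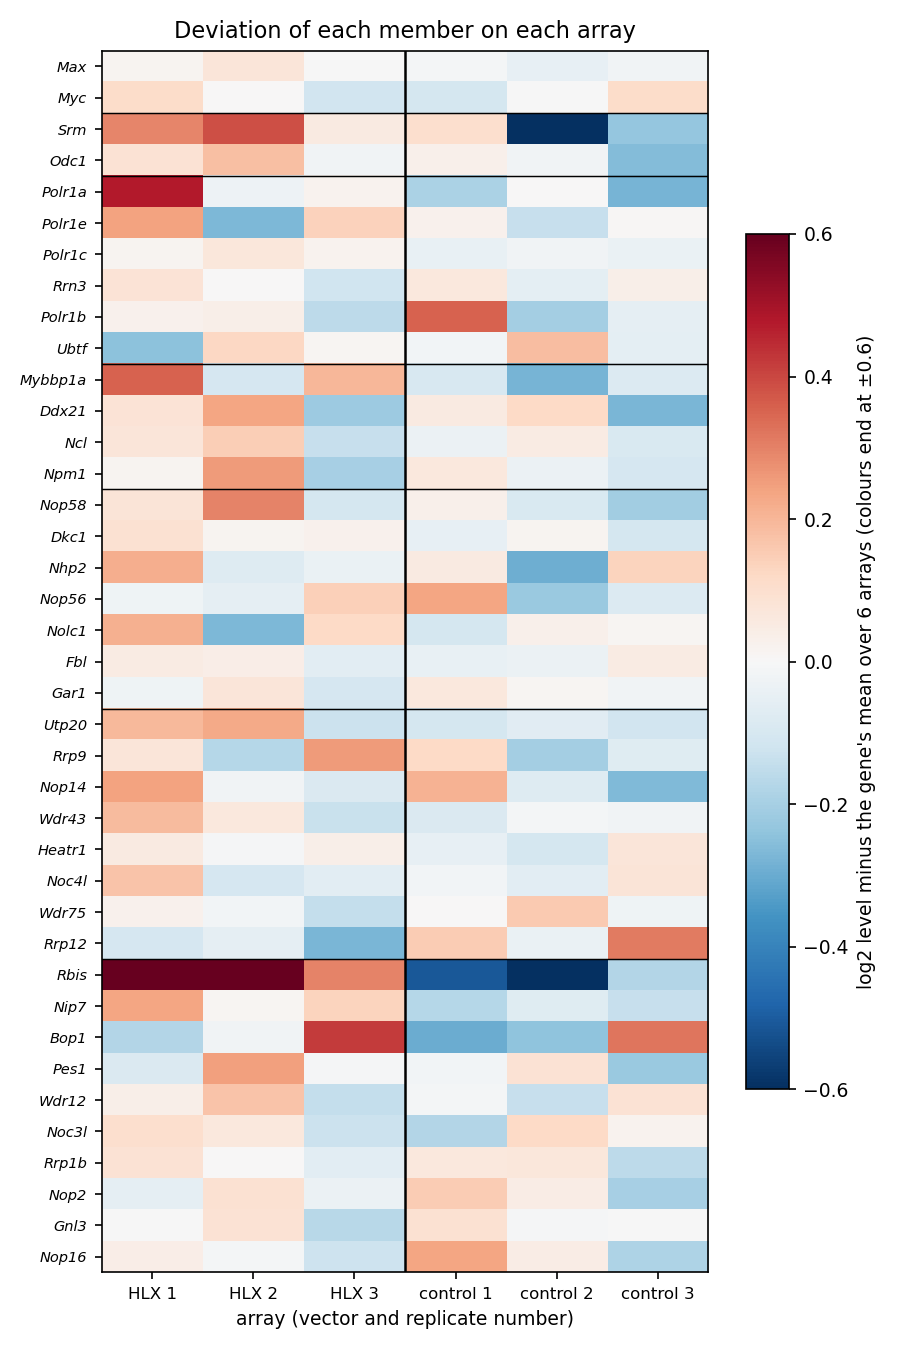
Log2 level of each of the 39 members minus its mean over the 6 arrays, HLX-vector arrays left of the vertical line and control-vector arrays right of it, with horizontal lines between the steps. Red is above the gene's mean, blue below, and colours end at ±0.6. Rbis is red on all 3 HLX-vector arrays and blue on all 3 control-vector arrays, while HLX replicate 3 is blue in 25 of the 39 rows.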

How the data were processed

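Expression was measured on Affymetrix arrays, 3 with the HLX vector and 3 with the control vector. RNA of 5000 to 10000 sorted cells was extracted with a micro kit and 3 ng was amplified by a whole-transcriptome system, per the labels' protocols. The deposited values are log2 levels per probeset. Per the submitters' processing notes, the authors used Affymetrix Power Tools and RMA, and the log2 scale was read from the values. RMA removes differences common to most transcripts and compresses weak signals. The number of arrays limits the precision, and array medians ran between 6.32 and 6.40. Nothing in the labels says that replicates came from separate mice or cultures. The p-values therefore rest on a spread between samples that may be technical.

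Of 35556 probesets 21789 had 1 gene symbol in the platform annotation, 1621 several and 12146 none. For the 999 genes with several 1-symbol probesets the brightest was taken, which left 19938 genes with no filter on level. The probeset numbers of members with a promoter window grouped by chromosome. The Odc1 probeset used (10582295) falls between those of Nip7 (chromosome 8) and Rrp9 (chromosome 9), while the window of Odc1 is on chromosome 12. That of Fbl (10447589) falls between those of Wdr43 and Polr1c, both on chromosome 17, and Fbl had no window to compare. Their values may thus come from another locus. Whether the brightest probeset of Fbl, Odc1 or Wdr12 lies at another locus was not checked directly. All genes were fitted with limma 3.58.1 (lmFit, eBayes, 2-sided, Benjamini-Hochberg over all genes, threshold 0.05) in R 4.3.3, with 4 residual degrees of freedom and a prior of 3.32. The SE is the moderated SE. The fit was also run on 20 simulated data sets of 19938 genes with 200 changed, drawn as independent normal values. It recovered 30.0% of 1.5-fold, 70.3% of 2-fold, 94.6% of 4-fold and 99.4% of 8-fold changes, with 4.54% false calls. In the deposited data it called 0 genes, and Hlx, at 7.75-fold, had an adjusted p from limma of 0.0782. The simulated shares therefore do not give the power of the fit in these data. Every member is named. Array values are given for Myc, Max, Srm, Odc1, Rbis and the members of each other step with the smallest p, and up to 3 genes with the smallest p are named from each of the 9 further lists (207 of 244 genes measured). The members and lists were chosen with earlier results of these data known, so lists are described by counts and medians without a test. Alternatives were 3 normalizations, 2 filters, the mean of probesets, another prior, array weights, the replicate block and leaving out each array. Plots were made in Python 3.11.15 (matplotlib 3.10.9).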

Additional observations from a re-analysis of the deposited data

How the results depend on the processing

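Over all genes limma called 0 at the adjusted threshold in the fit reported, with each array left out (0 to 0) and in the other settings, except with a trended and robust prior, where it called 1, Hlx. The count at an unadjusted p under 0.05, 958 as reported, was 606 among genes above the median of all probesets, 367 above the 70th percentile, where fewer genes are tested, and 805 to 1269 with 1 array left out. The members' median difference stayed positive in every setting, between 0.031 and 0.072 with 1 array left out, 0.033 after repeated quantile normalization, 0.040 after cyclic loess and 0.077 after centring of the arrays. Members above 0 were 23 to 31 of 39 with 1 array left out, the lowest count without HLX replicate 1 (59.0%, against 48.1% of all genes). Members at an unadjusted p under 0.05 were 5 with array weights, which added Mybbp1a and Polr1a, and 1 to 3 with 1 array left out, and the cause was not tested. Deviations of same-numbered arrays correlated at 0.20, 0.0090 and 0.14 over genes. Those of arrays with unlike numbers correlated between -0.225 and 0.105. Whether the replicate numbers pair the samples cannot be told from these values. With the replicate block 0 genes were called, 3 members (Rbis, Srm and Mybbp1a) were at an unadjusted p under 0.05, and the members' median was 0.055. Under the filter at the 70th percentile 37 members were fitted, without Rrp12 and Bop1. Of the 39 members 17, Rrp12 among them, kept their sign in every alternative in which they were fitted. In the other 22 the sign turned in at least 1 alternative. Myc was at 0.020 after centring and 0.017 with array weights, and Nop2 at 0.022 and 0.016. Rrn3 was at 0.0088 with array weights. After repeated quantile normalization Noc3l was at -0.012, Noc4l at -0.033 and Rrp1b at -0.015, and after cyclic loess Noc4l was at -0.023 and Rrp1b at -0.0059. With 1 array left out the log2 difference ranged as follows for those that changed sign: Bop1 -0.027 to 0.34, Ddx21 -0.053 to 0.19, Fbl -0.0015 to 0.053, Gar1 -0.081 to 0.0044, Gnl3 -0.11 to 0.012, Myc -0.057 to 0.056, Ncl -0.0077 to 0.13, Nhp2 -0.059 to 0.15, Noc3l -0.058 to 0.095, Noc4l -0.081 to 0.055, Nolc1 -0.053 to 0.19, Nop14 -0.019 to 0.22, Nop16 -0.17 to 0.038, Nop2 -0.10 to 0.076, Nop56 -0.057 to 0.17, Npm1 -0.066 to 0.16, Polr1b -0.18 to 0.10, Polr1e -0.032 to 0.23, Rrn3 -0.071 to 0.030, Rrp1b -0.054 to 0.057, Ubtf -0.15 to 0.031 and Wdr12 -0.032 to 0.13. The cause of these turns was not tested. Leaving out 1 array moved the difference by over 1.5 times in 11 of the 17 members that kept their sign, and in 19 of 27 named further pathway genes that kept it.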
